A study of Mus musculus with 6 samples.

Results

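Cells collected 18 days after activation were compared with cells collected before activation (day 0), with 1 array on each side. The genes described are those detected on either array: a gene is listed on the array by its brightest probe, and a probe counts as detected where its deposited detection p-value is below 0.01. Of 28902 genes on the array, 10840 met that rule, against 11954 detected on any of the 6 arrays of the series. Of the 10840, 8850 were detected on both arrays, 769 at day 18 only and 1221 at day 0 only.

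Total RNA was hybridised to Illumina bead arrays at day 0 and at days 2, 4, 7, 12 and 18, 1 array each. All cells came from mice of the strain written RAG1- BW TRP-1 TCR, aged 6 weeks, and are labelled as CD4+ T cells. As the name reads, the mice lack RAG1, the recombinase that assembles antigen receptors, and carry a T cell receptor transgene for TRP-1, a melanocyte protein. The day 18 cells are labelled Th17 and had been activated with TRP-1 peptide. The day 0 cells are given as naive and not activated, so activation, the Th17 culture and the time that passed cannot be told apart. The labels name no sort or gate. The number of mice behind each array is not given, nor whether animals were pooled. With 1 array a side no difference has a replicate check, and no p-value is given.

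CD4+ T cells that meet their peptide leave quiescence, grow, divide and turn on effector genes. Th17 cells make interleukin 17, whereas Th1 cells make interferon gamma under the factor T-bet. Killing by way of granzymes, proteases stored in granules and delivered through perforin, is best known in CD8 T cells and natural killer cells, and CD4 T cells can acquire it too. T cells that have been stimulated for long carry inhibitory receptors and divide less.

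Signals are given as normalized log2 values, which ran from 4.12 to 14.87 over the 6 arrays. The lowest signal of any detected probe was 4.97 at day 18 and 4.88 at day 0. Higher and lower mean at least 2-fold (1 log2 unit) between the arrays, with the gene detected on the brighter one. Where the dimmer array did not detect the gene, its side was set to that lowest detected signal, or to its own value if larger, and the fold is written as a bound with "at least". An undetected probe does not show that its gene was silent: the ribosomal protein genes Rps20 and Rps23 were undetected on both arrays too.

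Before correction the median signal was 87.2 at day 18 and 92.8 at day 0, and 30.2% of probes at day 18 and 31.5% at day 0 were detected. T cell markers were present on both: Cd3e, of the T cell receptor complex, was at 12.12 at day 18 and 10.66 at day 0, and Thy1 was at 13.70 at day 18 and 11.89 at day 0. The Cd4 probe was dim on both arrays, at 6.09 at day 18 and 5.87 at day 0. Of the CD8 chains, Cd8a was detected on neither array, whereas the brightest Cd8b1 probe was at 10.26 at day 18 and 10 at day 0. Over the mean of its probes, Cd8b1 was 1.43 log2 units higher at day 18 than at day 0. At day 18 the cytokines go against the Th17 label: Il17a and Il17f were detected on neither the day 18 nor the day 0 array, while on day 4 Il17a was at 10.57 and Il17f at 13.79. Genes of red cells, platelets and macrophages were bright at day 0. The summed linear signal of the erythroid and platelet list was 3618 at day 18 and 74237 at day 0, and that of macrophage genes 580 at day 18 and 22160 at day 0. Such sums run over all genes of a list on the array, detected or not. In bulk RNA, fewer cells of a type and less RNA per cell cannot be told apart, and this holds for every difference below.

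Of the 10840 genes, 948 (8.75%) were higher and 1039 (9.58%) were lower at day 18 than at day 0. Among the higher genes, 788 were detected on both arrays and 160 were undetected at day 0. Among the lower genes, 647 were detected on both and 392 were undetected at day 18. A difference of at least 8-fold was found for 79 higher (0.729%) and 177 lower genes (1.63%), and one of at least 32-fold for 12 higher (0.111%) and 34 lower genes (0.314%). The median difference over all 10840 genes was 0.04 log2 units.

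**Figure D1:**
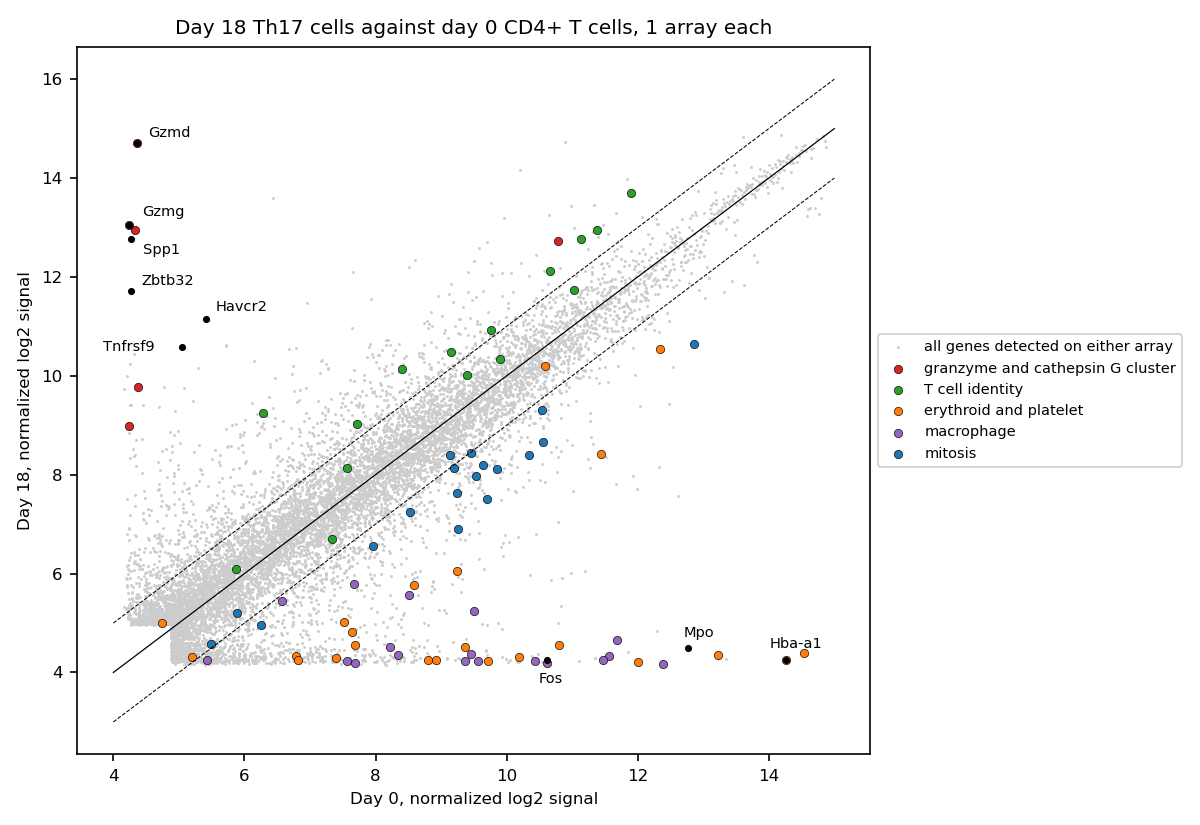
Each point is a gene detected on either array, with its normalized log2 signal at day 18 (vertical axis) against day 0 (horizontal axis), 1 array each. The solid line marks equal signals and the dashed lines a 2-fold difference. Gzmd lies at 14.70 at day 18 and 4.37 at day 0, while Hba-a1 lies at 4.25 at day 18 and 14.26 at day 0.

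The counts depend on what is held equal between the arrays. Quantile normalization, used throughout, sets the arrays to 1 distribution. When the median signal of 11 reference genes was set equal instead, 470 genes were higher and 1986 lower. When that of the T cell identity genes was set equal, 251 were higher and 4499 lower. The median of all genes moved to 0.15 with median scaling, to -0.36 with reference genes and to -0.86 with T cell identity genes. Each of the 3 scalings shifts a whole array by 1 constant, so relative to those medians they give the same list values. They make 1 comparison with quantile normalization. None of the 33 gene lists that lay at least 0.5 log2 units from the median changed sides in it. On the plain scale, 18 of the 29 list medians above 0 turned below 0 with T cell identity scaling and 8 with reference gene scaling. Most of these are given below beside their counts. Of those that are not, the CD8 chain list, which is Cd8b1 alone, had 0.26 and turned to -0.64 with T cell identity and -0.14 with reference gene scaling. With the mean of probes it was at 1.43. T cell identity scaling kept all 1039 lower genes and 251 of the 948 higher ones.

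**Figure D2:**
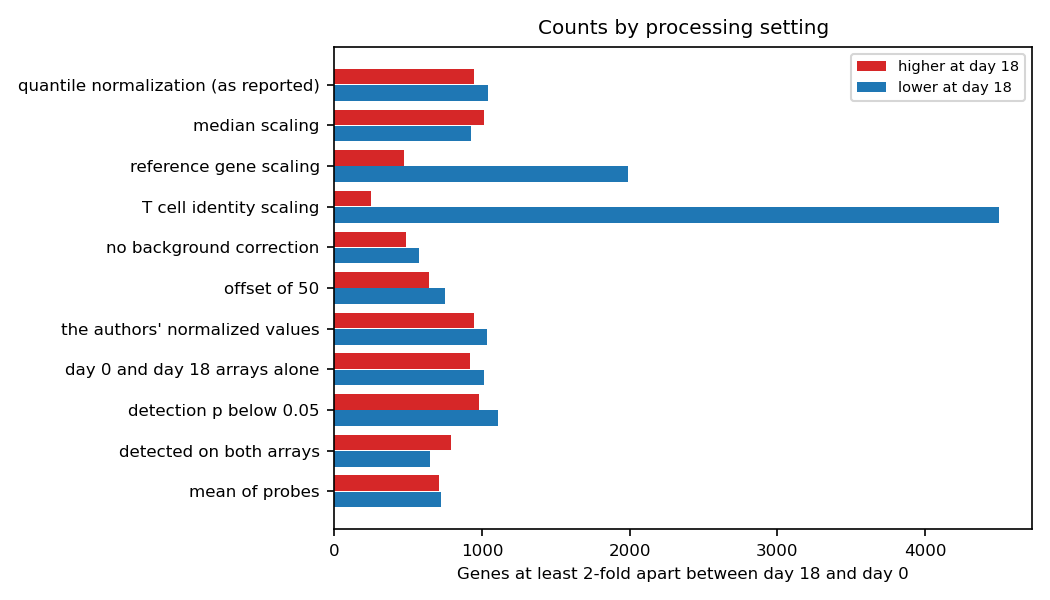
Bars give the number of genes at least 2-fold higher (red) and lower (blue) at day 18 than at day 0 under each processing setting. The counts were 948 higher and 1039 lower with quantile normalization. They were 251 higher and 4499 lower when the median signal of T cell identity genes was set equal.

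Probes to different stretches of 1 gene give a yardstick for these differences. Among 2632 pairs of probes detected on both arrays, the difference between day 18 and day 0 disagreed by a median of 0.20 log2 units, with an SD of 0.42, and 79 pairs (3%) disagreed by 1 unit or more. Of 318 higher genes with a second detected probe, 184 (57.9%) were at least 2-fold higher on it as well and none was lower. Of 357 lower genes with one, 199 (55.7%) were lower on it and 1 was higher. The yardstick covers the probes and not the variation between cultures.

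The granule genes of killer cells held the largest higher differences. Of 19 detected genes of the cytotoxic granule list, 12 were higher at day 18 and none lower, with a median difference of 1.62. Under T cell identity scaling 8 of the 19 were higher and 2 lower. Gzmd, encoding granzyme D, was at 14.70 at day 18 and 4.37 at day 0, at least 906-fold higher, and before correction its probe read 25346 at day 18 and 92.1 at day 0. Gzmg, encoding granzyme G, was at 13.06 at day 18 and 4.25 at day 0, and Gzme, granzyme E, at 12.95 at day 18 and 4.33 at day 0. These granzymes were undetected at day 0, which puts Gzmg at least 290.3-fold and Gzme at least 270.0-fold higher. The dimmer Gzmd probe was at 13.12 at day 18 and 4.27 at day 0, and the dimmer Gzme probe at 12.12 at day 18 and 4.17 at day 0. The granzymes of this cluster are close paralogs, and a probe may bind more than 1 of their transcripts. The brightest Gzmd probe lay close to the highest value on any array, 14.87, so it has little room above it.

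The cluster was uneven. In the RefSeq annotation of GRCm38.p6, Ctsg, Gzme, Gzmd, Gzmg, Gzmn and Gzmf are neighbours on chromosome 14, and all 6 were higher at day 18. Ctsg, the neutrophil protease cathepsin G, was at 12.73 at day 18 and 10.79 at day 0 (3.85-fold). Gzmn was at 9.77 at day 18 and 4.37 at day 0, and Gzmf at 8.98 at day 18 and 4.24 at day 0. Gzmc and Gzmb, the next genes in that order, were detected on none of the 6 arrays. Granzyme B is the granzyme usually followed in killer cells, and its probe was at 4.27 at day 18 and 4.18 at day 0. Whether the probe can report the transcript was not tested. On the other side of Ctsg, the mast cell protease genes Mcpt8 and Cma1 were less than 2-fold apart.

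The promoters of Gzmd, Gzme and Gzmg, the granzymes with the largest differences, are printed beside that of Gzmb, which went undetected, to let the cluster's genes be compared. The choice of genes and motifs was made after the values were seen. Each is the stretch of 200 bases before the start site from RefSeq (GRCm38.p6), 5′ to 3′ on the - strand. They lie at chr14:56132594-56132793 (Gzmd), chr14:56120626-56120825 (Gzme), chr14:56159580-56159779 (Gzmg) and chr14:56262335-56262534 (Gzmb). Capitals mark the RUNX letters TGTGGT, or ACCACA on the other strand, and the AP-1 letters TGANTCA.
Gzmd: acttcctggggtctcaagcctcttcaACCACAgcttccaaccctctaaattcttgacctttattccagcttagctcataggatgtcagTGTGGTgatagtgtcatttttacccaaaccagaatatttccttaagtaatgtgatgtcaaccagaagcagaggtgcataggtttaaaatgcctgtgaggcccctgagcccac
Gzme: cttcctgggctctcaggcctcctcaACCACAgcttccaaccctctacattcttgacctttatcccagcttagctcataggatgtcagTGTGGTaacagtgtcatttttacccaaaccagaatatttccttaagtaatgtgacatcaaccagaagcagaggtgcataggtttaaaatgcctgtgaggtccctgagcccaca
Gzmg: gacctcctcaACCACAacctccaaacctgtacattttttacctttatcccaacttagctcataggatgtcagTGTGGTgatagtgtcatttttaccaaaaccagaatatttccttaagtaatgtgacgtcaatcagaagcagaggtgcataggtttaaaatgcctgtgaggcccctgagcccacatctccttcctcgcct
Gzmb: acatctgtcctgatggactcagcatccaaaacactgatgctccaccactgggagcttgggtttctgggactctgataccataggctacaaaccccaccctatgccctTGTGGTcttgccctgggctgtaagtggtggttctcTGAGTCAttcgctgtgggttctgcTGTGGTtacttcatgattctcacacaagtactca

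When aligned, the Gzmd and Gzme stretches were identical at 189 of 200 bases (94.5%), and Gzmg at 171 of 200 (85.5%) with each of them. Gzmb shared 56.5% to 59.0% of its bases with the other 3. The RUNX letters were found 2 times in each of the 4 stretches, and 11.2% of 32851 promoter stretches of that length hold them. In Gzmd they began at -174 and -112 from the start site, and in Gzmb at -93 and -34. The AP-1 letters, held by 5.48% of promoters, were found once, in Gzmb at -58. STAT letters (TTCNNNGAA, in 5.49% of promoters) and T-box letters (GGTGTGA or TCACACC, in 2.64%) were found in none of the 4. A match describes letters only, and draws nothing about binding.

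Other granule genes were higher by smaller amounts. Prf1, which encodes the pore-forming protein perforin, was at 12.35 at day 18 and 8.60 at day 0 (13.4-fold), and its dimmer probe at 10.92 at day 18 and 6.19 at day 0. Fasl, the Fas ligand that kills through a death receptor, was at 9.76 at day 18 and 6.93 at day 0 (7.06-fold). Cst7, the protease inhibitor cystatin F of killer cell granules, was at 9.71 at day 18 and 6.86 at day 0 (7.22-fold). Gzmk, granzyme K, was 3.61-fold higher and Ctsd, the lysosomal protease cathepsin D, 2.16-fold higher. Tnfsf10, encoding the death ligand TRAIL, was less than 2-fold apart, at 6.54 at day 18 and 5.99 at day 0.

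**Figure D3:**
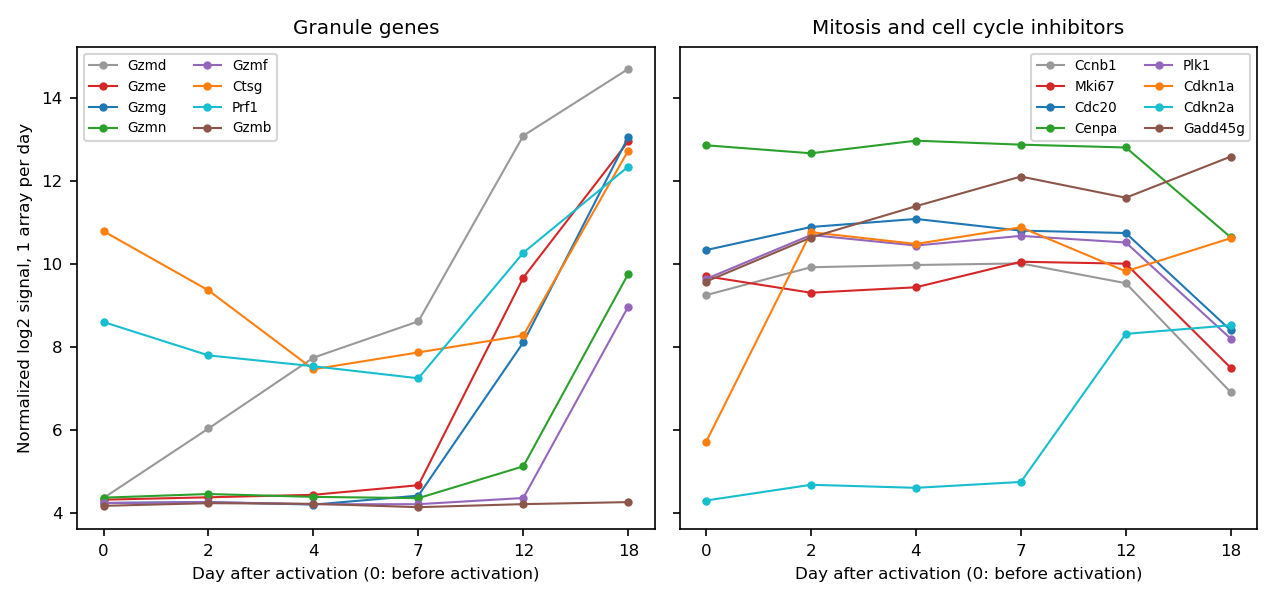
Normalized log2 signal (vertical axis) of granule genes (left) and of mitosis and cell cycle inhibitor genes (right) on the arrays of days 0, 2, 4, 7, 12 and 18, 1 array per day, with the days at equal steps. Gzmg was at 8.11 at day 12 and 13.06 at day 18, while Ccnb1 was between 9.25 and 10.02 on days 0 to 12 and at 6.91 on day 18.

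Markers of natural killer cells went both ways. Ncr1, a defining receptor of these cells, was undetected on both arrays. Of 18 detected killer lectin and NK receptor genes, 5 were higher and 7 lower (median -0.48). Over the 12 of them detected on both arrays 5 were higher and 4 lower, with a median of 0.33. Klra7 and Klra3, receptors of the Ly49 family, were undetected at day 18 and at 8.68 and 7.82 at day 0, at least 13.1-fold and 7.20-fold lower. Klre1, a killer lectin receptor, was at 6.20 at day 18 and 9.30 at day 0 (8.56-fold lower), and Klrb1f at least 6.91-fold lower. The higher genes included Klrd1, encoding CD94, at 11.51 at day 18 and 10.43 at day 0 (2.13-fold), and Klrg1, a receptor of terminally differentiated T cells, at 8.36 at day 18 and 7.20 at day 0 (2.24-fold). Cd244a, the receptor 2B4, was 4.71-fold higher, while Klrk1, encoding NKG2D, was at 6.53 at day 18 and 7.29 at day 0. Klrg1 and Cd244a were also at least 2-fold higher at day 18 than on each of the other 5 arrays.

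Helper lineage genes were mixed. Among 10 detected genes of the Th17 list 3 were higher and 2 lower (median 0.26, which turned to -0.75 with T cell identity scaling and -0.25 with reference gene scaling). Il12rb1, a chain shared by the receptors for interleukins 12 and 23, was at 8.52 at day 18 and 4.80 at day 0, at least 12.5-fold higher. Irf4, an activation factor needed for Th17 cells, was at 8.11 at day 18 and 4.71 at day 0, at least 9.38-fold higher. Rora, which Th17 cells also use, was at 7.33 at day 18 and 6.31 at day 0 (2.02-fold higher, and 0.05 log2 units below day 0 with T cell identity scaling). Ccr6, the chemokine receptor of Th17 cells, was undetected at day 18 and at 8.97 at day 0, at least 16-fold lower, and Il6ra, a chain of the interleukin 6 receptor, was 6.18-fold lower.

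The Th1 list had 9 of 19 detected genes higher and 3 lower (median 0.88, which turned to -0.13 with T cell identity scaling). Ifng, encoding interferon gamma, was at 9.03 at day 18 and 7.95 at day 0 (2.12-fold), while its dimmer probe was at 8.79 at day 18 and 8.0 at day 0 and stayed under 2-fold. The cytokines Lta and Tnf were 3.82-fold and 3.53-fold higher. Eomes, a T-box factor of killer cells, was at 6.73 at day 18 and undetected at day 0, at least 3.62-fold higher. Tbx21, which encodes T-bet, was at 6.21 at day 18 and 6.79 at day 0, less than 2-fold apart. The 3 lower genes were the chemokines Ccl4 (2.05-fold), Ccl3 (5.99-fold) and Xcl1 (9.71-fold).

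No detected gene of the 6 on the Th2 list passed 2-fold. Gata3, the Th2 factor, was at 6.70 at day 18 and 7.33 at day 0, and Il10, encoding an anti-inflammatory cytokine, at 5.33 at day 18 and undetected at day 0. Of 14 detected Treg and TGF-beta genes 6 were higher and 4 lower (median 0.62, which turned to -0.32 with T cell identity scaling). Foxp3, the regulatory T cell factor, was at 8.42 at day 18 and 9.51 at day 0 (2.12-fold lower), and none of its other 3 probes was detected at day 18. Nrp1 and Gpr83, both also found on regulatory T cells, were at least 5.10-fold and 3.15-fold lower. The higher members included Itgae, the CD103 integrin chain induced by TGF-beta, at 9.21 at day 18 and 7.64 at day 0 (2.96-fold).

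Surface receptors of activated T cells were uneven. The list of inhibitory receptors also holds the galectin Lgals3 and the transcription factor Tox. Of its 10 detected genes 5 were higher and 1, Tox, was lower (median 1.56). Under T cell identity scaling 5 of the 10 were higher and 3 lower. Havcr2, encoding the inhibitory receptor TIM-3, was at 11.15 at day 18 and 5.41 at day 0 (53.4-fold), and its dimmer probe at 10.40 at day 18 and 5.01 at day 0. Ctla4, which competes with CD28 for its ligands, was at 8.79 at day 18 and 4.92 at day 0 (14.6-fold). Lgals3, encoding galectin-3, was at 14.17 at day 18 and 10.20 at day 0 (15.6-fold), and Lilrb4a, an inhibitory immunoglobulin-like receptor, was at least 6.55-fold higher. Lag3 was at 7.23 at day 18 and 6.35 at day 0, less than 2-fold apart. Pdcd1, which encodes PD-1, was undetected on both arrays. Tox, a factor of exhausted T cells, was undetected at day 18 and at 7.19 at day 0, at least 4.66-fold lower.

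Costimulatory receptors had 5 of 13 higher and 3 lower (median 0.69, which turned to -0.11 with T cell identity scaling). Tnfrsf9, encoding 4-1BB, was at 10.58 at day 18 and 5.04 at day 0 (46.4-fold), and of its other probes 1 was at 10.35 at day 18 and undetected at day 0 and 1 was undetected on both. Cd28, the receptor for the second activation signal, was at 9.25 at day 18 and 6.29 at day 0 (7.79-fold). Icos was 6.82-fold higher and the early activation marker Cd69 4.18-fold higher. Tnfrsf25, a death domain receptor, was 2.80-fold lower. Among 9 detected TNF superfamily ligands 5 were higher and none lower (median 1.02, with 1 higher and 1 lower under T cell identity scaling). Besides Fasl, Lta and Tnf the 5 were Tnfsf11, encoding RANKL, and Tnfsf8, the CD30 ligand. Tnfsf11 was at 6.41 at day 18 and undetected at day 0, and Tnfsf8 at 5.90 at day 18 and undetected at day 0.

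The interleukin 2 receptor and the genes it induces through STAT5 had 10 of 15 higher and 1 lower (median 1.40). Under T cell identity scaling 4 of the 15 were higher and 2 lower. Il2ra, the alpha chain CD25, was at 8.57 at day 18 and 4.9 at day 0 (12.8-fold), and Il2rb, the beta chain, was at 7.92 at day 18 and 5.65 at day 0 (4.83-fold). Cish and Socs2, which damp cytokine signals, were 12.9-fold and 7.42-fold higher. Bcl2, which guards against cell death, was at 9.44 at day 18 and 7.48 at day 0 (3.90-fold), and the other probe that detected it at 8.19 at day 18 and 6.96 at day 0. The cytokine itself was not among them: Il2 was undetected at day 18 and at 4.97 at day 0. Stat5a was at 7.38 at day 18 and 8.89 at day 0 (2.85-fold lower), and 1.07 log2 units lower on its dimmer probe.

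Transcription factors of effector T cells had 7 of 15 higher and 1 lower (median 0.44, which turned to -0.60 with T cell identity scaling and -0.10 with reference gene scaling). Zbtb32, a repressor induced in activated lymphocytes, was at 11.72 at day 18 and undetected at day 0, at least 115-fold higher, and its dimmer probe was at 7.79 at day 18. Hopx, Bhlhe40 and Gfi1 were 5.49-fold, 5.23-fold and 4.95-fold higher. Id2, an inhibitor of E proteins, was at 10.25 at day 18 and 8.42 at day 0 (3.55-fold), and Hif1a, the hypoxia factor, was 4.57-fold higher. Zeb2, a factor of terminal effector cells, was undetected at day 18 and at least 7.33-fold lower. Prdm1, which encodes Blimp-1, was undetected on both arrays.

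Of 20 detected genes of naive and quiescent T cells 3 were higher and 3 lower, 15% each way beside 8.75% and 9.58% of all genes. Their median, 0.16, turned to -0.81 with T cell identity scaling and -0.31 with reference gene scaling. Klf2, the factor that keeps T cells quiescent, was at 6.80 at day 18 and 10.45 at day 0 (12.6-fold lower). Ccr7, which guides cells to lymph nodes, was less than 2-fold apart, at 6.68 at day 18 and 6.79 at day 0. So were Il7r, the interleukin 7 receptor, at 10.80 at day 18 and 10.11 at day 0, and Tcf7, the factor TCF-1, at 8.22 at day 18 and 7.95 at day 0. Lef1, its relative, was at 7.13 at day 18 and 5.64 at day 0 (2.81-fold higher). Ly6c1, a surface antigen of memory cells, was 6.15-fold higher and Slfn2, which helps hold T cells quiescent, 2.44-fold higher.

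Among 19 detected immediate early genes 4 were higher and 5 lower (median 0.18, which turned to -0.64 with T cell identity scaling and -0.14 with reference gene scaling). Fos, of the AP-1 complex, was undetected at day 18 and at 10.62 at day 0, at least 50.3-fold lower, and Fosb was at least 6.54-fold lower. The phosphatase gene Dusp1 was at 7.67 at day 18 and 11.02 at day 0 (10.2-fold lower), and Zfp36, which speeds decay of cytokine messages, was 5.75-fold lower. Fosl2, another AP-1 member, was at 9.10 at day 18 and 6.01 at day 0 (8.51-fold higher).

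Genes of the T cell receptor complex and its proximal signalling had 12 of 20 higher and none lower (median 1.28). Under T cell identity scaling 2 of the 20 were higher and none lower. Cd3g, Cd3d and Cd3e were 3.09-fold, 2.94-fold and 2.75-fold higher. Lat, the adaptor at the head of the pathway, was at 10.13 at day 18 and 8.41 at day 0 (3.29-fold). Themis, a T cell signalling protein, was at 7.38 at day 18 and undetected at day 0, at least 5.67-fold higher, and Lcp2, the adaptor SLP-76, was 2.86-fold higher. The wider list of T cell identity genes had 9 of 15 higher and none lower (median 1.32). Its summed linear signal was 44364 at day 18 and 16530 at day 0, while that of erythroid, platelet and macrophage genes was lower at day 18, and the part of those cells in the difference was not tested.

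Homing and adhesion genes differed one by one. Chemokine receptors had 5 of 12 higher and 3 lower (median 0.40, which turned to -0.65 with T cell identity scaling and -0.15 with reference gene scaling). Ltb4r1, the leukotriene B4 receptor, was at 11.48 at day 18 and 6.95 at day 0 (23.2-fold higher), and Ccr2 was 4.69-fold higher. Cxcr4, the receptor that retains cells in bone marrow, was at 5.12 at day 18 and 7.61 at day 0 (5.59-fold lower), and Cx3cr1 was at least 3.29-fold lower. Among 16 integrin and adhesion genes 6 were higher and 5 lower (median 0.40, which turned to -0.38 with T cell identity scaling). Itga1, the collagen-binding CD49a chain, was at 7.54 at day 18 and undetected at day 0, at least 6.34-fold higher. Itgal, the LFA-1 chain, was 4.45-fold higher, and Itgav at least 3.34-fold higher. Itga2b, the platelet integrin chain, was at least 6.36-fold lower.

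The chemokine list had no higher gene and 6 of 10 lower (median -1.81). Pf4 and Ppbp, which platelets store, were 7.05-fold and 9.20-fold lower, and Ccl9, made by myeloid cells, was 9.28-fold lower. The erythroid and platelet signals were lower at day 18 too, and their part in these differences was not tested. Secreted and matrix genes went the other way, with 12 of 15 higher, 1 lower and a median of 2.06. Under T cell identity scaling 8 of the 15 were higher and 3 lower. Spp1, encoding osteopontin, was at 12.77 at day 18 and undetected at day 0 at 4.26, at least 237-fold higher. Esm1, the secreted proteoglycan endocan, was at 11.13 at day 18 and 5.46 at day 0 (50.9-fold), and Gpnmb, a membrane glycoprotein, was at least 12.2-fold higher. S100a4, a calcium-binding protein of motile cells, was 7.31-fold higher, and Timp2, a metalloproteinase inhibitor, was at least 9.25-fold lower.

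Most mitosis genes, and part of the S phase and histone genes, were lower at day 18. Of 18 detected mitosis genes 15 were lower and none higher (median -1.42). Ccnb1, the mitotic cyclin B1, was at 6.91 at day 18 and 9.25 at day 0 (5.06-fold lower), and 2.14 log2 units lower on its dimmer probe. Cenpa, the centromere histone, was at 10.64 at day 18 and 12.86 at day 0 (4.65-fold lower). Mki67, the Ki-67 antigen of cycling cells, was 4.61-fold lower and Cdc20, which triggers anaphase, 3.82-fold lower. The 4 named genes were detected on both arrays. Of 27 detected S phase genes 10 were lower and none higher (median -0.92). Dut, which keeps uracil out of DNA, was 3.12-fold lower and Rrm1, of the enzyme that makes deoxynucleotides, 2.75-fold lower. Histone genes had 5 of 11 lower and none higher (median -0.82), among them H4c9 (3.70-fold) and H2ax (3.69-fold). Histone genes are close copies of each other, and a probe may bind more than 1. The summed linear signal of the mitosis list was 19066 before activation, 23261 on day 2 and 5760 on day 18. Erythroid, platelet and macrophage genes were lower on the day 18 array too. The part of those cells in the mitosis, S phase and histone differences was not tested.

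Inhibitors of the cell cycle and targets of p53 had 9 of 20 higher and 1 lower (median 0.78, which turned to -0.03 with T cell identity scaling). Cdkn1a, encoding p21, was at 10.62 at day 18 and 5.71 at day 0 (30.0-fold), and its other 2 probes reached 9.72 and 8.42 at day 18. Cdkn2a, the locus of p16 and p19, was at 8.53 at day 18 and undetected at day 0, at least 12.6-fold higher, and a further probe was at 8.92 at day 18 and undetected at day 0. The last Cdkn2a probe, at 5.46 at day 18 and undetected at day 0, stayed under 2-fold. Gadd45g, a stress-induced gene, was at 12.59 at day 18 and 9.58 at day 0 (8.06-fold), whereas its relative Gadd45a was at 5.75 at day 18 and 8.86 at day 0 (8.64-fold lower). Phlda3 and Ccng1, both p53 targets, were 6.17-fold and 4.99-fold higher. Among 21 genes of apoptosis and survival, 5 were higher and 2 lower (median 0.55, which turned to -0.44 with T cell identity scaling). The p53-induced killers Bbc3 and Bax were 2.87-fold and 2.18-fold higher, and Bid was 3.29-fold lower.

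Genes of sugar and sterol metabolism were often higher, and with quantile normalization none on these lists was lower. Under T cell identity scaling 5 of 16 glycolysis, 3 of 11 hypoxia and 9 of 23 cholesterol and fatty acid genes were higher. In that setting 1 hypoxia target and 2 cholesterol and fatty acid genes were lower, and no glycolysis gene. Of 16 detected glycolysis genes 10 were higher and none lower (median 1.52). Aldoc, an aldolase, was at 8.63 at day 18 and 5.01 at day 0 (12.3-fold), and Pfkp, a phosphofructokinase, was at 10.06 at day 18 and 7.16 at day 0 (7.48-fold). Slc2a1, the glucose transporter GLUT1, was 5.36-fold higher, and the enolase Eno1 and the pyruvate kinase Pkm were 4.78-fold and 4.19-fold higher. Hypoxia targets had 6 of 11 higher and none lower (median 1.37), led by Ankrd37 (6.62-fold) and Egln3 (6.31-fold). Cholesterol and fatty acid synthesis had 15 of 23 higher and none lower (median 1.49). Scd1, the desaturase that makes oleate, was at 9.74 at day 18 and 5.08 at day 0 (25.3-fold), and the sterol demethylase Cyp51 was at 9.01 at day 18 and 5.81 at day 0 (9.23-fold). Mvd, Hsd17b7 and Lss, which act along the sterol pathway, were 7.41-fold, 6.48-fold and 6.38-fold higher.

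Amino acid supply and targets of the stress factor ATF4 had 7 of 17 higher and none lower (median 0.76, which turned to -0.04 with T cell identity scaling). Trib3, a pseudokinase of the stress response, was at 9.30 at day 18 and 4.94 at day 0 (20.6-fold), but its other 2 probes, undetected at day 0, differed by 0.99 and 1.24 log2 units with that side at its bound. Chac1, which breaks down glutathione, was at 8.85 at day 18 and undetected at day 0, at least 15.7-fold higher. Mitochondrial genes differed little with quantile normalization. Oxidative phosphorylation had none of 20 higher and 1 lower (median -0.19, which turned to 0.05 with median scaling), and that gene was Ndufa4, at 10.19 at day 18 and 12.54 at day 0 (5.13-fold lower). The tricarboxylic acid cycle and fatty acid oxidation had a median of -0.30, with 1 of 18 genes higher, Acadl (4.21-fold), and 1 lower, Idh1 (2.46-fold). With T cell identity scaling 9 of 20 oxidative phosphorylation genes and 12 of these 18 were lower (medians -0.95 and -1.26). With reference gene scaling 3 and 8 were lower. No ribosomal protein of 20 and no proteasome subunit of 18 passed 2-fold, with ranges of -0.25 to 0.41 and -0.60 to 0.58 log2 units. The ribosomal protein median, 0.10, turned to -0.53 with T cell identity and -0.03 with reference gene scaling. Ribosome biogenesis had 1 of 23 lower, Gar1 (2.07-fold), and none higher. With T cell identity scaling 16 of these 23 genes were lower, as were 5 of the 18 proteasome subunits and 1 ribosomal protein.

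Interferon-induced genes were higher in part. Of 9 detected interferon-induced GTPases, which act against pathogens inside cells, 7 were higher and none lower (median 1.96). Under T cell identity scaling 4 of the 9 were higher and none lower. Gbp2 was at 12.71 at day 18 and 9.69 at day 0 (8.11-fold), and Igtp at 12.33 at day 18 and 9.51 at day 0 (7.04-fold). Irgm2 and Gvin1 were 4.9-fold and 4.19-fold higher. Type I interferon response genes had 5 of 18 higher and 2 lower (median 0.69, which turned to -0.22 with T cell identity scaling). Oasl2 and Ifit3 were 3.28-fold and 3.12-fold higher, whereas Rsad2, encoding viperin, was 6.34-fold lower. MHC class I and immunoproteasome genes had 4 of 16 higher and none lower (median 0.83, which turned to -0.05 with T cell identity scaling). The higher ones were Nlrc5, which drives class I genes, at 9.93 at day 18 and 8.54 at day 0 (2.61-fold), Psmb8 (2.50-fold), H2-M3 (2.43-fold) and Tap2 (2.03-fold).

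**Figure D4:**
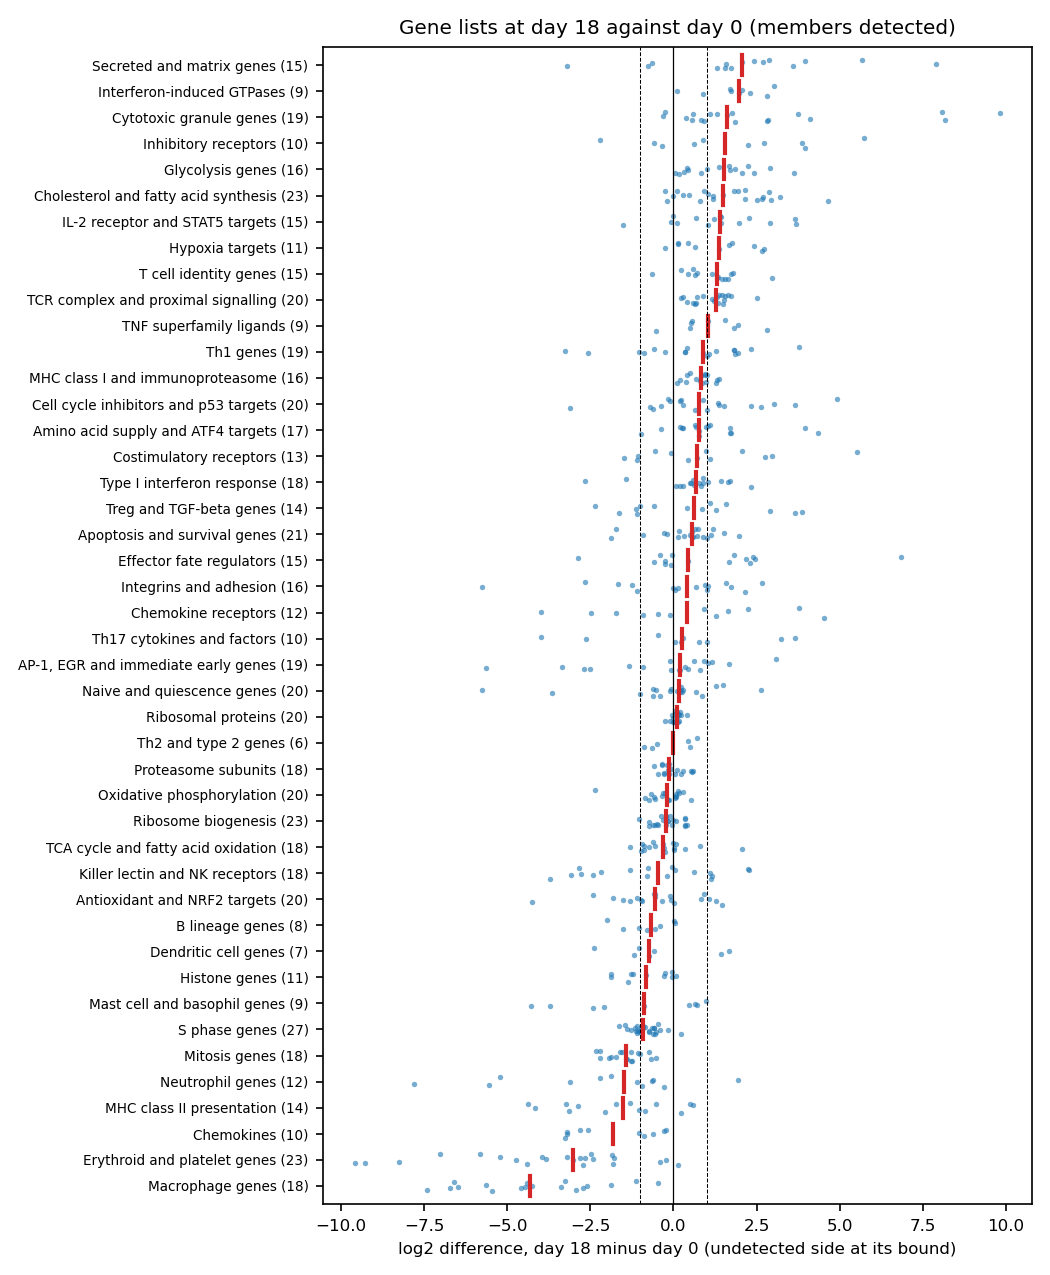
Each row is a gene list with the number of its genes detected on either array. Points are the genes' log2 differences, day 18 minus day 0, with an undetected side set to its bound, red bars are medians, and dashed lines mark 2-fold. Secreted and matrix genes have the highest median (2.06) and macrophage genes the lowest (-4.33), and of the 29 medians above 0 among all 51 lists 18 turn below 0 with T cell identity scaling and 8 with reference gene scaling.

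The largest lower differences belonged to red cells and their precursors. Of 23 detected erythroid and platelet genes 20 were lower and none higher (median -3.02), and 7 were detected at day 18 against 22 at day 0. The haemoglobin genes Hbb-b1 and Hba-a1 were at 4.39 and 4.25 at day 18, undetected, and at 14.54 and 14.26 at day 0, at least 763-fold and 628-fold lower. They have close copies that a probe may not separate. Car1, the carbonic anhydrase of red cells, was undetected at day 18 and at 13.23 at day 0, at least 307-fold lower. Slc4a1, the red cell anion exchanger, was at least 131-fold lower, and Klf1, the master factor of red cell genes, was at least 56.9-fold lower, at 10.80 at day 0.

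Myeloid genes were lower as well. Of 18 detected macrophage genes 17 were lower and none higher (median -4.33), and 4 were detected at day 18 against 18 at day 0. Slc40a1, the iron exporter ferroportin, was undetected at day 18 and at 12.39 at day 0, at least 171-fold lower. Vcam1, an adhesion molecule of splenic and marrow macrophages, was at least 96.8-fold lower, and the complement genes C1qb and C1qc were at least 50.1-fold and 44.0-fold lower. Of 12 detected neutrophil genes 7 were lower and 1 higher (median -1.49). Mpo, encoding myeloperoxidase, was undetected at day 18 and at 12.77 at day 0, at least 223-fold lower, and Prtn3, proteinase 3, was at least 47.4-fold lower. S100a8, which neutrophils hold in quantity, was at least 37.3-fold lower. The gene higher at day 18 was Ctsg, which lies beside the granzymes and was the only neutrophil gene of 16 detected at day 18. The summed linear signal of the neutrophil list was 7107 at day 18 and 12296 at day 0, and Ctsg made up most of the day 18 sum.

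Class II antigen presentation genes had 9 of 14 lower and none higher (median -1.53), and their summed linear signal was 1952 at day 18 and 12031 at day 0. Macrophage genes were lower too, and their part in this was not tested. H2-Eb1 was at 5.97 at day 18 and 10.36 at day 0 (21.0-fold lower), and Cd74, the invariant chain, at 8.15 at day 18 and 12.33 at day 0 (18.1-fold lower). Cd86, a costimulatory ligand of antigen-presenting cells, was 7.33-fold lower. Mast cell and basophil genes had 4 of 9 lower and none higher (median -0.88). Gata2, a factor of these cells and of progenitors, was at 5.25 at day 18 and 9.54 at day 0 (19.5-fold lower), while Cpa3, a mast cell protease, was at 8.62 at day 18 and 7.63 at day 0, just under 2-fold. B lineage genes had 3 of 8 lower and none higher. Dendritic cell genes had 3 of 7 lower and 2 higher, and the higher ones, Batf3 and Bst2, are also made by T cells.

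**Figure D5:**
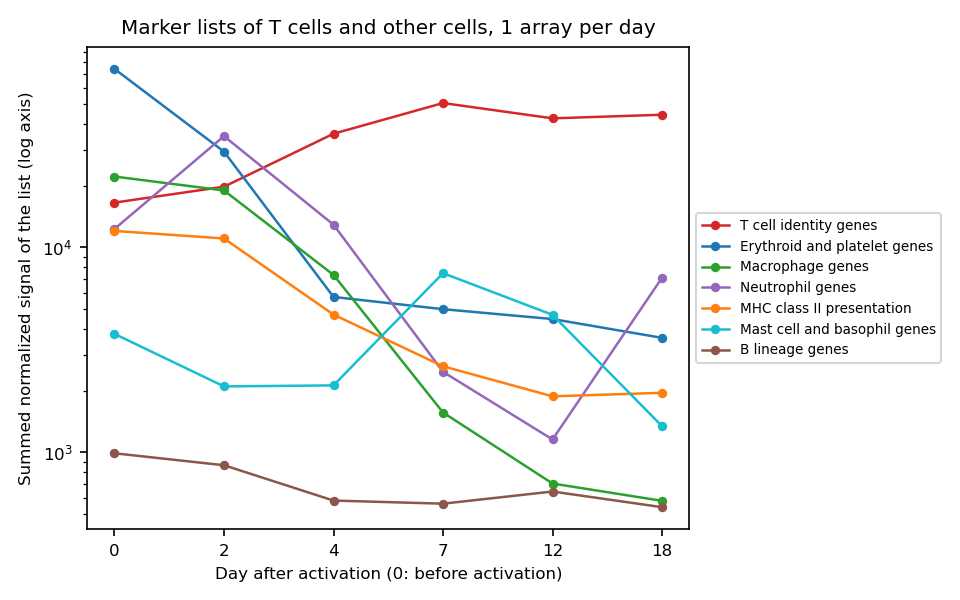
Summed linear signal of marker lists (vertical log axis) on the arrays of days 0, 2, 4, 7, 12 and 18, 1 array per day. Erythroid and platelet genes were at 74237 on day 0 and 3618 on day 18, and T cell identity genes at 16530 on day 0 and 44364 on day 18.

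Between day 12 and day 18, 157 of 10296 genes (1.52%) were higher and 271 (2.63%) lower on the later array. Some genes set day 18 apart from the whole series. At least 2-fold above each of the other 5 arrays were 72 of the 11954 genes detected on any array (0.602%), and at least 2-fold below each were 93 (0.778%). Ranked by the smallest of the 5 differences, Gzmg came first: it was undetected on days 0 to 7, at 8.11 on day 12 and at 13.06 on day 18 (30.8-fold above day 12). Gzmn followed, at 5.13 on day 12 and 9.77 on day 18, and then Gzmf, detected at day 18 alone. Of the genes on the cytotoxic granule list, which does not hold every granzyme of the cluster, 5 were among the 72. Havcr2 was at 5.16 to 6.26 on days 0 to 7, at 8.92 on day 12 and at 11.15 on day 18. Serpine2, a protease inhibitor, was at 7.94 to 9.35 on the other days and at 11.55 on day 18, and the actin-severing genes Scin and Avil were 6.47-fold and 19.4-fold higher than at day 0. Prf1 was at 7.25 to 8.60 on days 0 to 7, at 10.27 on day 12 and at 12.35 on day 18. Ctsg was brighter at day 18 (12.73) than on any other day, next to 10.79 at day 0 and 8.28 at day 12.

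Among the 93 genes lowest at day 18 were 15 of the 26 mitosis genes on the array. Ccnb1 was at 9.25 to 10.02 on days 0 to 12 and at 6.91 on day 18, and Mki67 at 9.31 to 10.06 on days 0 to 12 and at 7.50 on day 18. Cdca3 and Cdca8, which act in mitosis, were 4.66-fold and 3.60-fold lower than at day 0, and Hmgb2, a chromatin protein of cycling cells, 5.10-fold lower. Of the 30 S phase genes on the array none was among the 93. Only 0.778% of the genes detected on any array were, so a list of that size need hold none. Genes of the H2A histone family, such as H2ac15, H2ac21 and H2ax, were among the 93. So were 3 of the 12 genes of the histone list on the array. Cxcr4 was there too, at 7.09 to 9.17 on days 0 to 12 and at 5.12 on day 18. Among cell cycle inhibitors, Cdkn1a was at 9.82 to 10.89 on days 2 to 12 and at 10.62 on day 18, and Cdkn2a was undetected on days 0 to 7, at 8.32 on day 12 and at 8.53 on day 18. Cdkn2b, which encodes p15 and was picked out after its values were seen, was among the 72 higher genes, at 5.20 or less on days 0 to 12 and at 6.24 on day 18.

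Of the 25 largest higher differences, some belong to none of the lists. Tnfrsf11b, encoding osteoprotegerin, the decoy receptor for RANKL, was at 10 at day 18 and undetected at day 0, at least 34.9-fold higher. Errfi1, a feedback inhibitor of growth factor receptors, was at 10.60 at day 18 and 5.72 at day 0 (29.3-fold). P2ry14, a receptor for UDP sugars, was at 12.09 at day 18 and 7.66 at day 0 (21.6-fold). Gpx8, a peroxidase of the endoplasmic reticulum, Adora3, an adenosine receptor, and Fam20a were undetected at day 0 and at least 29.8-fold, 23.2-fold and 41.2-fold higher. Rgs16, a brake on G protein signals, was at least 22.6-fold higher and Speer3 at least 47.4-fold.

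Of the 25 largest lower differences, several belong to none of the lists. A probe named ERAF, matched to no RefSeq symbol, was undetected at day 18 and at 13.35 at day 0, at least 333-fold lower. Lmo2, a cofactor of early blood cell factors, was at 4.84 at day 18 and 12.29 at day 0, Aqp1, a water channel, at 4.41 at day 18 and 11.86 at day 0, and Gfi1b, an erythroid repressor, at 4.32 at day 18 and 10.38 at day 0. Sirpa, which reads CD47 on myeloid cells, was at least 45.8-fold lower, and Sphk1, a sphingosine kinase, at least 83.8-fold lower. Most of the 25 were undetected at day 18. Samd14 was detected on both arrays, at 5.35 at day 18 and 10.83 at day 0 (44.7-fold lower).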

How the data were processed

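Each time point had 1 Illumina bead array. Per the file headers, the deposited table was exported from GenomeStudio (GSGX 1.9.0) with no normalization and holds for 45281 probes an intensity and a detection p-value per array. The way that p-value was computed is not stated there. A further table of intensity values, normalized by the authors in a way not stated, was deposited and served as an alternative. RNA was extracted with Trizol and a column clean-up with DNase, per the labels' protocols.

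Intensities of all 6 arrays were background-corrected by normexp, its parameters estimated through the detection p-values, then raised by an offset of 16, quantile-normalized and put on the log2 scale, in limma 3.58.1 (neqc, R 4.3.3). Later steps used Python 3.11.15, pandas 2.3.3, numpy 2.4.6 and matplotlib 3.10.9. Of 30854 probe names, 16223 matched a RefSeq symbol of GRCm38.p6 and 5676 a synonym, 8918 stayed as the file writes them, and 37 had been turned into dates or numbers. The probe with the highest mean over the arrays stood for a gene. With 1 array a side no model was fitted, and the number of arrays limits the precision.

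Genes named are the 25 largest differences each way, the 15 largest each way against all 5 other arrays, the 6 largest of each of 51 lists and 49 key genes. Markers and genes outside that rule that complete a count or a cluster were chosen after their values were seen. The members and lists were chosen with earlier results of these data known, and some genes are in more than 1 list. Alternatives were median, reference gene and T cell identity scaling, an offset of 50, no background correction, the authors' normalized values, the day 0 and day 18 arrays alone, a detection p below 0.05, genes detected on both arrays, and the mean of a gene's probes. Median scaling used the 11446 probes detected on all arrays, a choice made after the data were seen. Gzma was not on the array by that name. Some genes that the rule covers are not reported here.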

Additional observations from a re-analysis of the deposited data

How the results depend on the processing

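No paired analysis was possible because each time point has 1 array. Counts of genes higher and lower at day 18 were 470 and 1986 with reference gene scaling, 251 and 4499 with T cell identity scaling, and 487 and 573 with no background correction. Over genes detected on both arrays they were 788 and 647. The other 6 alternatives gave 641 to 1017 higher and 722 to 1110 lower genes. Genes apart at day 18 from all 5 other arrays were 34 higher and 221 lower with T cell identity scaling and 39 higher and 44 lower with no background correction, and 42 were higher among genes detected on both arrays. List medians at least 1 log2 unit from the median of all genes numbered 16, and 10 with no background correction, which also shrinks differences of dim genes by its construction. Of 265 named genes called higher or lower, 208 kept their call with T cell identity scaling, 56 stayed under 2-fold in the same direction and Rora turned to -0.048. Of these 265, 221 kept it with no background correction, 221 with the mean of probes, 238 with reference gene scaling and 245 to 265 with the others that keep all genes. The neutrophil median turned to 1.94 over genes detected on both arrays, where Ctsg alone remains. For other reversals and for moved counts the cause was not tested. Bounds are set by the detection limit, about 4.9 to 5.0 log2 units.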

Other observations

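Other gene lists held members that passed 2-fold at day 18, beside 8.75% of all genes that were higher and 9.58% that were lower. Cytoskeleton genes had 6 of 23 higher and 4 lower, with Tubb6, a beta tubulin, at 10.29 at day 18 and 6.14 at day 0 (17.8-fold higher), Capg, an actin-capping protein, 4.56-fold higher and Myo6, a myosin motor, 2.93-fold lower. Antioxidant genes had 3 of 20 higher and 6 lower. Hmox1, which breaks down haem, was at 5.25 at day 18 and 9.50 at day 0 (19.0-fold lower), and Gclm, of glutathione synthesis, was 5.4-fold lower, while Mt2, a metallothionein, was 2.74-fold higher. Chaperones had 1 of 21 lower, Hspa1a (at least 2.28-fold), and 4 higher, all of the endoplasmic reticulum: Pdia4 (3.60-fold), Calr (2.76-fold), Hsp90b1 (2.34-fold) and Pdia6 (at least 2.26-fold). Lysosome and autophagy genes had 4 of 20 higher, led by Sqstm1, the autophagy receptor p62 (3.66-fold), and 3 lower, led by the protease gene Ctsb (3.84-fold). Its median, 0.22, turned to -0.77 with T cell identity and -0.27 with reference gene scaling. The LY6 family had 3 of 7 higher and 1 lower, and its median, 0.63, turned to -0.14 with T cell identity scaling. Ly6a, the surface antigen Sca-1, was at 13.97 at day 18 and 11.84 at day 0 (4.37-fold higher), Ly6g5b was at 8.86 at day 18 and undetected at day 0, and Ly6d was at least 3.29-fold lower.

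Probes named for T cell receptor segments were looked at after the values were seen. The TRBV31 probe was at 14.83 at day 18 and 13.61 at day 0, and read 27139 at day 18 and 14489 at day 0 before correction. A TCRB-V8.2 probe was at 14.87 at day 18 and 14.19 at day 0, whereas a second probe of that name was at 6.14 at day 18 and undetected at day 0. The TCRG-V4 probe, named for a gamma chain segment, was at 10.58 at day 18 and 8.92 at day 0, and the TCRD-V1 probe at 9.36 at day 18 and 7.22 at day 0. The other 6 gamma chain probes, named TCRG (2 probes), TCRG-C, TCRG-V5, TCRG-V6 and TCRG-V7, were undetected on both arrays. The probes named TRBV1, TRBV11 and TRBV19 were among those undetected on both arrays. Other beta chain probes were dim but detected. The TRBV8 probe was at 6.07 at day 18 and 5.10 at day 0, and the TRB probe at 5.86 at day 18 and 5.65 at day 0. The TCRB-V8.3 and TRBV13-1 probes were at 5.01 and 4.89 at day 0 and undetected at day 18. Whether a probe binds its named segment or a constant part was not tested.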
